A study of Homo sapiens with 3 samples.

Results

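The genes described here are 36 classical oestrogen-responsive and luminal genes, named one by one for their known response to estradiol or their role in luminal breast epithelium. A gene was measured where the platform annotation gave a probe set that symbol and no other, and its value on an array was the median over such probe sets. By that rule 35 of the 36 were measured, through 75 probe sets, out of 19775 genes on the array. Of the 35, 9 were read by 1 probe set and 26 by 2 to 5. SGK3, a kinase gene related to AKT, was not measured, because its 3 probe sets carry further symbols.

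The cells were SKBR3, an established line from a human breast cancer in which ERBB2 is amplified; it is known to lack oestrogen receptor α and to carry the membrane receptor GPER1. All cells spent 4 h in charcoal-stripped serum, which holds little steroid hormone, before treatment. One culture then received 0.1% ethanol (vehicle), another estradiol at 1 µM, and another ERα17p at 1 µM, a peptide that copies a stretch of oestrogen receptor α, and RNA was taken after 3 h. An ethanol content is recorded for the vehicle culture only, and the labels do not name the solvent of the peptide. Each condition had 1 whole-genome array, 3 in all, so no value has a replicate, an error or a p-value. The comparison asks whether genes known to follow oestrogen receptor α differed with estradiol or the peptide in a line without that receptor.

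In receptor-positive breast cells, estradiol binds oestrogen receptor α, which settles on oestrogen response elements, mostly in distant enhancers, with the help of the factors FOXA1 and GATA3. Bound receptor recruits coactivators, and genes such as GREB1, PGR and CTSD are then transcribed within hours. Luminal genes such as KRT19 mark the epithelial layer that faces the duct and can be transcribed in lines without the receptor.

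Proximal promoters were read first, since the receptor's element is a defined sequence. RefSeq promoter windows on GRCh38.p14, reaching from 250 bases before a gene's start to 50 after it, were at hand for 26 of the 36 genes, in 44 windows. The palindromic element GGTCANNNTGACC was in 0 of these 44 windows and in 0.057% of all 35116 promoter windows of that length. Its half-site GGTCA, searched on both strands and part of the whole element, was in 15 of the 44 windows (34.1%) and in 37.4% of all. The GC box GGGCGG, bound by Sp1, was in 36 of 44 (81.8%) against 45.0% of all. The heat shock repeat GAANNTTC was in 3 of 44 (6.82%) against 6.77%, and its other orientation TTCNNGAA in 5 of 44 (11.4%) against 7.74%. Windows of 1 gene can overlap, and a match is a string of letters and not a measured binding site.

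The 250 bases before the start are shown for 4 genes, from the upstream end to the last base before the start. HSPB8 (chr12:119178681-119178930, plus strand) is shown because it alone passed 1.5-fold. Its capitals mark the 1 match of the heat shock repeat GAANNTTC in this stretch. Its window holds a further match past the start, outside the bases shown. NRIP1 (chr21:15065001-15065250, minus strand), CXCL12 (chr10:44385098-44385347, minus strand) and CTSD (chr11:1763928-1764177, minus strand) are shown as genes with a half-site, in capitals, whose differences with estradiol, all under 1.5-fold, were -0.48, 0.43 and 0.01.
HSPB8: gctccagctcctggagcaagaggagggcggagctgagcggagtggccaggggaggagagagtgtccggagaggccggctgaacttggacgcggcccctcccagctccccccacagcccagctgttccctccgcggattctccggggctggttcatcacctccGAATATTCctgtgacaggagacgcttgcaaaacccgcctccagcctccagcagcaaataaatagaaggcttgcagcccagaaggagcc
NRIP1: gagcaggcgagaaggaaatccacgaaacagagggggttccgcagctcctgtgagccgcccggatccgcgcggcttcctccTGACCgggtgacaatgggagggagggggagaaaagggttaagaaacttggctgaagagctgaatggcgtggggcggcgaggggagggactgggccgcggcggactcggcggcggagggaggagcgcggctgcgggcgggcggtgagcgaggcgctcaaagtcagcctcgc
CXCL12: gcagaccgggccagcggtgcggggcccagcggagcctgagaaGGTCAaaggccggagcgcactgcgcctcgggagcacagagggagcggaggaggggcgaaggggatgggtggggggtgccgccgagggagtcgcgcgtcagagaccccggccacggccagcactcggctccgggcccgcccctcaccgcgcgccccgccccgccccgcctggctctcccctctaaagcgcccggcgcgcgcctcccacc
CTSD: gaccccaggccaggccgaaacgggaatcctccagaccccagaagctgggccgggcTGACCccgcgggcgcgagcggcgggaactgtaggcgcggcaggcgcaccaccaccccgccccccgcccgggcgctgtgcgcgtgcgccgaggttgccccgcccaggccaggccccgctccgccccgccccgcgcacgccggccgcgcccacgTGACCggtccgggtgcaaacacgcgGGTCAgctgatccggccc
CTSD has 3 half-site matches in this stretch, NRIP1 and CXCL12 have 1 each, and the NRIP1 window is 1 of several for that gene.

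Each value is a log2 distance from a per-probe-set baseline that the authors had removed. The sources used here do not state the log base, which was taken as 2, as RMA gives it. A difference between arrays can be read, but a level cannot, so that the luminal character of the line could not be checked against marker levels and a silent gene cannot be told from an expressed one. "Higher" and "lower" without further words mean at least 1.5-fold, or 0.58 on the log2 scale. In a culture, less RNA per cell and fewer cells that express a gene cannot be told apart.

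The array labelled vehicle differed from the other 2 over the whole genome. Its standard deviation over all probe sets was 0.27, against 0.12 with estradiol and 0.13 with ERα17p. Among 14 NF-kB and cytokine genes, 13 were measured, and their median was 4.02 on the array labelled vehicle (range 0.05 to 7.12), -0.09 with estradiol (-0.32 to 0.20) and 0.43 with ERα17p (-0.11 to 1.65). For ACTB the 3′ probe set minus the 5′ one, a comparison used to judge RNA integrity, gave 0.30, 0.02 and -0.04 in the same order. For GAPDH it gave 0.05, 0.01 and -0.03. Each probe set is centred on its own baseline, so these values compare the arrays and do not measure RNA integrity itself. Of 12 leukocyte and fibroblast marker genes, 10 were measured and none was 1.5-fold apart in any comparison. Of all genes, 2.93% were lower and 0.809% higher with estradiol than with vehicle, and 2.14% and 0.582% with ERα17p. Between the agents the shares were 0.207% and 0.147%. The list's medians were 0.00, 0.04 and -0.02 on the vehicle, estradiol and ERα17p arrays. Its differences from vehicle ran from -0.18 to 0.42 with estradiol and from -0.44 to 0.45 with ERα17p. Every difference from vehicle, here and below, rests on the array labelled vehicle, and the part of its state in those differences was not tested.

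**Figure D1:**
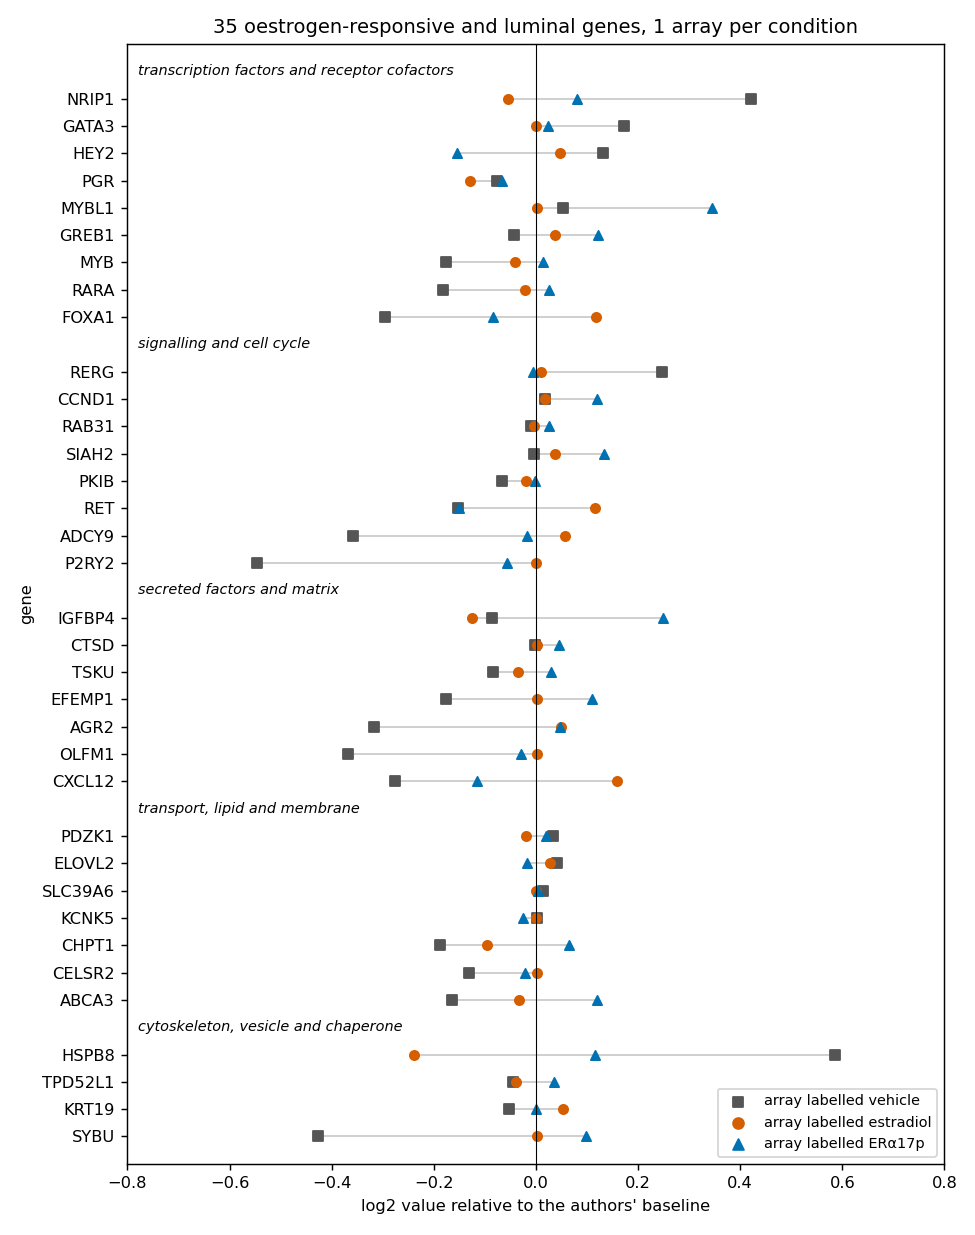
Values of the 35 measured genes on the 3 arrays, in log2 units relative to the authors' baseline, grouped by role (squares, vehicle; circles, estradiol; triangles, ERα17p; grey lines join a gene's lowest and highest value). Squares spread from -0.55 (P2RY2) to 0.59 (HSPB8), circles from -0.24 to 0.16 and triangles from -0.15 to 0.34.

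With estradiol, the 35 genes differed little from vehicle. HSPB8 was lower, and no gene was higher. That is 1 of 35 genes (2.86%) lower, where 2.93% of all 19775 genes were lower, and 0 of 35 higher, where 0.809% of all were. The median difference was 0.05 log2 units, against 0.03 over all genes, and 22 of 35 genes (62.9%) lay above 0, against 56.1% of all. The median size of a difference, sign left out, was 0.11 among these genes and 0.14 over all genes. At 1.5-fold the shares of the group were thus close to those of the array as a whole, and so were its medians. Under a looser rule, given further on, the share upward was 20.0% of the group against 7.65% of all genes. Measured from the baseline in place of vehicle, 0 of 35 passed that rule on the estradiol array, where 1.01% of all did.

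With ERα17p, no gene of the group was lower or higher than vehicle, where 2.14% of all genes were lower and 0.582% higher. The median difference was 0.11, against 0.03 over all genes, and 26 of 35 genes (74.3%) lay above 0, against 58.0% of all. Between estradiol and ERα17p, no gene was lower or higher either, where 0.207% of all genes were lower and 0.147% higher. There the median was -0.04, against -0.01 over all genes. The comparisons of estradiol and of ERα17p with vehicle share the vehicle array, so their differences are set side by side and not counted as separate evidence.

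**Figure D2:**
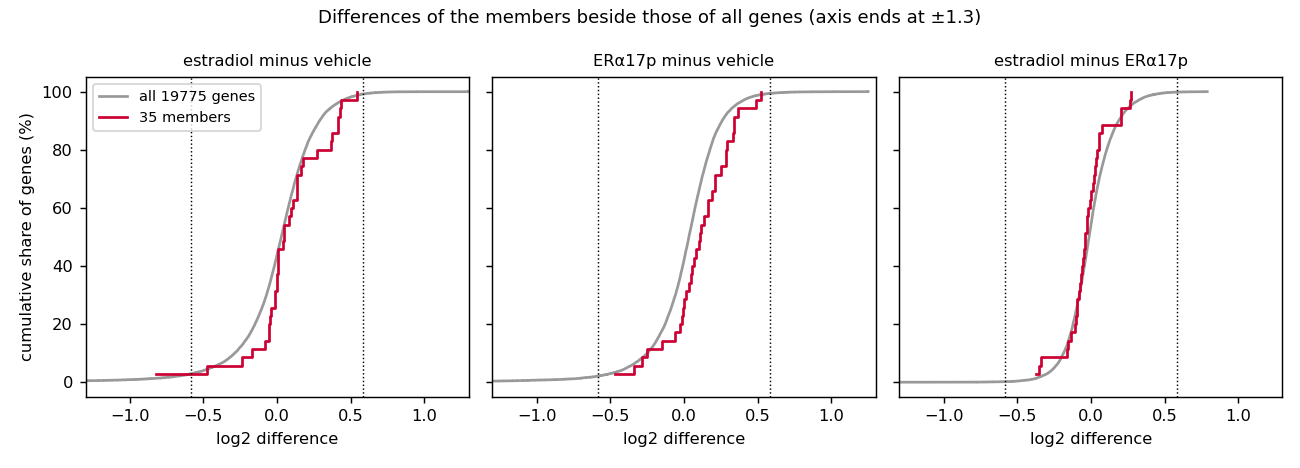
Cumulative share of genes (%) against the log2 difference in the 3 comparisons, for the 35 genes (red) and all 19775 (grey); dotted lines mark 1.5-fold and the axes are cut short of the widest differences of all genes. The red line crosses a dotted line once, on the lower side for estradiol minus vehicle, and lies to the right of the grey one through the middle of the ERα17p minus vehicle panel (medians 0.11 and 0.03).

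A looser rule of 0.32 log2 units, applied in the same way, showed where the group's wider differences lay. With estradiol, 7 of 35 genes (20.0%) passed it upward, against 7.65% of all genes, and 2 (5.71%) downward, against 8.49%. With ERα17p, 6 (17.1%) passed it upward, against 5.85%, and 2 (5.71%) downward, against 6.98%. P2RY2, SYBU, ADCY9, AGR2 and OLFM1 passed it upward in both comparisons, FOXA1 and CXCL12 with estradiol and IGFBP4 with ERα17p. HSPB8 and NRIP1 passed it downward in both. On the array labelled vehicle itself, 4 of the 35 (11.4%) lay at least 0.32 under the baseline, against 4.2% of all genes. On the estradiol array 0 of 35 passed 0.32 either way from the baseline, where 1.01% of all genes did, and on the ERα17p array 1 did, MYBL1 above it, where 0.673% of all did so upward. Of the genes past 0.32 log2 units against the vehicle array, all but IGFBP4 had the value farthest from the baseline on the vehicle array.

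Transcription factors and receptor cofactors comprised 9 measured genes. Their median difference from vehicle was -0.05 with estradiol and 0.16 with ERα17p. NRIP1, which encodes a corepressor that binds hormone-bound nuclear receptors, had values of 0.42 with vehicle, -0.06 with estradiol and 0.08 with ERα17p. It was high with vehicle and near the baseline with either agent, a difference of -0.48 with estradiol and -0.34 with ERα17p. Its 2 probe sets had -0.48 and -0.47 with estradiol, and -0.55 and -0.13 with ERα17p, so that they lay close together in the first comparison only.

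FOXA1, the pioneer factor that opens chromatin for the receptor, had -0.30, 0.12 and -0.08 on the vehicle, estradiol and ERα17p arrays. It was lowest with vehicle and highest with estradiol, by 0.41, and its 2 probe sets gave 0.37 and 0.46. GATA3, the luminal lineage factor, ran the other way, with 0.17 on the vehicle array, -0.00 with estradiol and 0.02 with ERα17p. Its differences were -0.17 and -0.15, and all 3 probe sets lay under 0 in both. The factors that assist the receptor thus had opposite signs.

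The progesterone receptor gene PGR, a standard readout of receptor activity, had -0.08, -0.13 and -0.07 on the 3 arrays. GREB1, a cofactor of the receptor and itself among its foremost targets, had -0.04, 0.04 and 0.12. With estradiol the differences were -0.05 for PGR and 0.08 for GREB1, and with ERα17p 0.01 and 0.16. The 2 PGR probe sets had opposite signs, 0.18 and -0.29 with estradiol and 0.23 and -0.20 with ERα17p, so that its differences lie midway between them. The 3 GREB1 probe sets gave 0.08 to 0.09 with estradiol, and -0.02 to 0.40 with ERα17p. Neither gene came near 1.5-fold.

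RARA, a retinoic acid receptor gene, had -0.18, -0.02 and 0.03, or differences of 0.16 and 0.21 over 5 probe sets. HEY2, a repressor downstream of Notch, had 0.13, 0.05 and -0.15 and was lowest with ERα17p, by -0.29 against vehicle. MYBL1, a factor related to MYB, had 0.05, 0.00 and 0.34 and was highest with ERα17p. Against ERα17p the estradiol array lay -0.34 lower in MYBL1, through probe sets at -0.44, -0.34 and 0.04. MYB itself had -0.18, -0.04 and 0.01, but its 2 probe sets disagreed, as described further on.

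Signalling and cell cycle genes had 8 measured members, with a median of 0.04 with estradiol and 0.08 with ERα17p. P2RY2, the receptor gene for extracellular ATP and UTP, had -0.55 with vehicle, 0.00 with estradiol and -0.06 with ERα17p. It was low on the vehicle array alone. Its differences of 0.55 (1.46-fold) and 0.49 (1.40-fold) were the widest upward of the group with estradiol and second to SYBU with ERα17p, and ranked 243 and 270 from the top of 19775 genes. P2RY2 was read by 1 probe set.

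ADCY9, an adenylyl cyclase gene, had -0.36, 0.06 and -0.02, hence differences of 0.42 and 0.34, and its 3 probe sets lay above 0 in both comparisons (0.09 to 0.47 and 0.30 to 0.35). RET, a receptor tyrosine kinase gene, had -0.15, 0.12 and -0.15. It was highest with estradiol, by 0.27 against either other array, although its 3 probe sets ran from -0.14 to 0.28 for ERα17p against vehicle. RERG, a RAS-related growth inhibitor gene, had 0.25, 0.01 and -0.01, with differences of -0.24 and -0.25.

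CCND1, which encodes the G1 cyclin D1, had 0.02, 0.02 and 0.12, so that vehicle and estradiol were level. SIAH2, a ubiquitin ligase gene, had its highest value of 0.13 with ERα17p, against 0.04 with estradiol. RAB31, a vesicle GTPase gene, and PKIB, an inhibitor of protein kinase A, had differences from vehicle between 0.01 and 0.06. In these 4 genes no difference was wider than 0.14 log2 units in any of the 3 comparisons.

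Among secreted and matrix genes, 7 of 7 were measured. Of these, 6 lay above 0 with estradiol (median 0.18) and 7 with ERα17p (median 0.29), and none passed 1.5-fold. Over all genes, 56.1% and 58.0% lay above 0, with a median of 0.03 in each. All 7 genes of the class lay under the baseline on the vehicle array, from -0.37 to -0.003. AGR2, a disulphide isomerase of the secretory pathway, had -0.32, 0.05 and 0.05, or differences of 0.37 and 0.36. OLFM1, which encodes an olfactomedin glycoprotein, had -0.37, 0.00 and -0.03, or 0.37 and 0.34. By these gene values the vehicle array was low in both genes and the treated arrays lay near the baseline. The 3 OLFM1 probe sets differed, with 0.00 to 0.46 for estradiol and 0.05 to 0.48 for ERα17p. In 1 of them the treated arrays lay apart, at 0.09 with estradiol and -0.23 with ERα17p.

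CXCL12, the ligand of the chemokine receptor CXCR4, had -0.28, 0.16 and -0.11. It was highest with estradiol, by 0.43 against vehicle and 0.27 against ERα17p, and its 2 probe sets gave 0.36 and 0.50 in the former and 0.28 and 0.27 in the latter. IGFBP4, an IGF-binding protein gene, had -0.09, -0.13 and 0.25. It was high on the ERα17p array alone, with 0.33 against vehicle and -0.37 for estradiol against ERα17p, the latter the lowest difference of the group in that comparison and rank 266 from the bottom of all genes. IGFBP4 was read by 1 probe set.

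EFEMP1, which encodes the matrix protein fibulin-3, had -0.18, 0.00 and 0.11, and its 3 probe sets lay above 0 in both comparisons with vehicle. CTSD, the lysosomal protease gene cathepsin D, had 0.00 on the vehicle and estradiol arrays to 2 decimals and 0.05 with ERα17p. TSKU, which encodes a secreted leucine-rich protein, had -0.08, -0.04 and 0.03. CTSD, like PGR and GREB1 a standard target in receptor-positive cells, was thus among the genes that differed least.

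Transport, lipid and membrane genes, of which 7 of 7 were measured, had the narrowest range of all classes with estradiol, from -0.05 to 0.13. With ERα17p they ran from -0.06 to 0.29, around a median of -0.01. SLC39A6, the zinc transporter gene LIV-1, had 0.01, 0.00 and 0.00. Its 4 probe sets ran from -0.16 to 0.20 with estradiol against vehicle, and from -0.02 to 0.03 with ERα17p. KCNK5, a potassium channel gene, PDZK1, a scaffold gene of membrane transporters, and ELOVL2, a fatty acid elongase gene, lay between -0.03 and 0.04 on every array. The ELOVL2 values lie midway between 2 probe sets, which had 0.32 and -0.24 with vehicle and differences of -0.27 and 0.25 with estradiol. ABCA3, a lipid transporter gene, had -0.16, -0.03 and 0.12, and CELSR2, an adhesion receptor of the cadherin family, -0.13, 0.00 and -0.02. CHPT1, a choline phosphotransferase gene of phospholipid synthesis, had -0.19, -0.10 and 0.07 from 3 probe sets that disagreed.

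The last class held 4 genes of the cytoskeleton, vesicles and protein folding, among them HSPB8, the lowest of the group in both comparisons with vehicle. HSPB8, a small heat shock protein gene, had 0.59 with vehicle, -0.24 with estradiol and 0.12 with ERα17p. The vehicle array was highest and the estradiol array lowest. The difference was -0.82 with estradiol (1.77-fold), rank 270 from the bottom of 19775 genes, -0.47 with ERα17p (1.38-fold) and -0.36 for estradiol against ERα17p.

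The 2 probe sets of HSPB8 did not give the same picture. The probe set of the common-transcript kind (suffix _s_at) had 0.98, -0.53 and 0.36, a difference of -1.51 with estradiol, whereas the gene-specific probe set had 0.19, 0.05 and -0.13, a difference of -0.14. With ERα17p they gave -0.62 and -0.32. For estradiol against ERα17p they had opposite signs, -0.89 and 0.18. Read by the latter alone, the gene is not lower, and the count with estradiol is 0 of 29 genes that have a probe set of the latter kind, where 2.97% of such genes were lower. Against the baseline in place of vehicle, HSPB8 lay at -0.24 with estradiol, and the count was 0 of 35, where 0.0506% of all genes were lower.

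SYBU, which encodes the kinesin adaptor syntabulin, had -0.43, 0.00 and 0.10. It was low on the vehicle array alone, with differences of 0.43 and 0.52, the latter 1.44-fold and rank 199 from the top. It was read by 1 probe set. KRT19, the keratin of luminal cells, had -0.05, 0.05 and 0.00, and TPD52L1, a vesicle-traffic gene, had -0.04, -0.04 and 0.04. Apart from HSPB8, every gene of the class lay within 1.5-fold on all arrays.

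**Figure D3:**
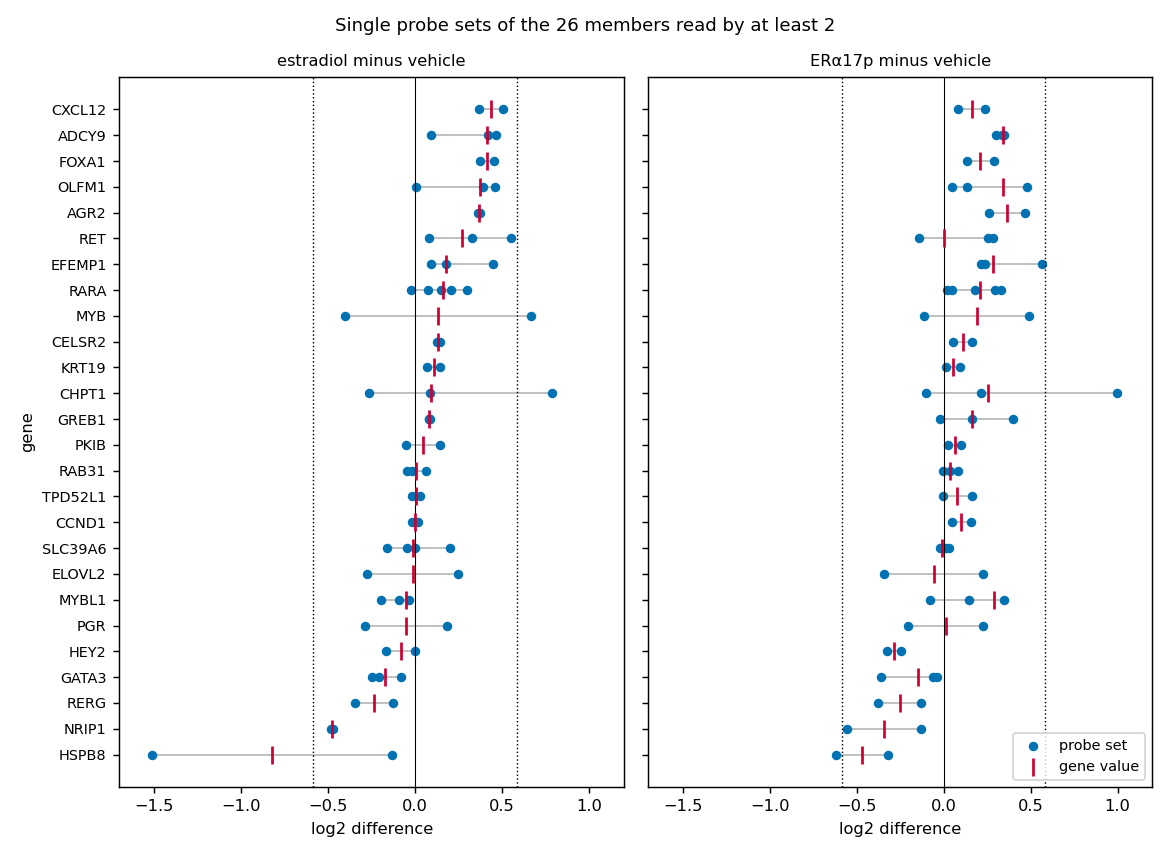
Log2 difference of every probe set (blue points) and the gene value (red bars) for the 26 genes read by at least 2, with estradiol (left) and ERα17p (right) minus vehicle; dotted lines mark 1.5-fold. HSPB8, CHPT1 and MYB have points beyond a dotted line and others near 0 or on the opposite side.

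Single probe sets spread wider than gene values. With estradiol, 3 of the 75 probe sets passed 1.5-fold (4.00%, against 5.09% of all 41091): HSPB8 at -1.51, CHPT1 at 0.79 and MYB at 0.67. The other probe sets of CHPT1 had 0.08 and -0.26, and the other of MYB had -0.40. With ERα17p, 2 of 75 passed (2.67%, against 3.65%), those of CHPT1 at 0.995 and of HSPB8 at -0.62. Of the 26 genes with at least 2 probe sets, all probe sets had the same sign in 15 (57.7%) with estradiol, 16 (61.5%) with ERα17p and 11 (42.3%) for estradiol against ERα17p. Over all 10523 such genes the shares were 46.3%, 45.9% and 38.5%. The spread between probe sets of a gene, 0.24 as a standard deviation over all such genes with estradiol, was wider than the difference of 25 of the 35 genes. These 35 include the 9 read by 1 probe set. The median size of a difference over all 19775 genes, 0.14, lay under that spread too. The share of all genes under it was not counted, so the 25 do not set the group apart.

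Estradiol against ERα17p, the comparison without the vehicle array, ranged from -0.37 (IGFBP4) to 0.27 (CXCL12, with RET at 0.27 too). The median size of a difference was 0.07, against 0.09 over all genes. Past 0.32 log2 units there were 3 genes lower with estradiol, namely IGFBP4, HSPB8 and MYBL1 (8.57%, against 2.41% of all genes), and none higher, against 2.98%. FOXA1 and HEY2 followed on the higher side with 0.20 each. Of the 35 genes, 22 had their lowest value on the vehicle array (62.9%, against 45.5% of all genes), 9 with estradiol and 4 with ERα17p, and 17 had their highest with ERα17p (48.6%, against 34.3%).

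Further genes of the pathway, listed apart from these 36, gave the setting. Of 32 other oestrogen-responsive genes 31 were measured. With each agent 3 of the 31 were lower, where 2.93% of all genes were with estradiol and 2.14% with ERα17p. These were FOS at -2.02 with estradiol and -2.46 with ERα17p, IER3 at -1.06 and -1.15, and EGR3 at -0.97 and -1.01. FOS and EGR3 encode immediate early factors and IER3 an immediate early survival protein. On the vehicle array they lay at 2.22, 1.10 and 0.93, and on both treated arrays between -0.24 and 0.20. The list's medians were -0.05 and -0.02, against 0.03 over all genes in each.

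TFF1, the trefoil peptide gene often used as a receptor target, had -0.40 with vehicle, 0.15 with estradiol and -0.45 with ERα17p. Its value with estradiol was the highest, by 0.54 against vehicle, under 1.5-fold, and by 0.59 against ERα17p, past it. The values farthest from the baseline were those with vehicle and ERα17p, both under it. TFF1 was the 1 gene of the 31 past 1.5-fold for estradiol against ERα17p, where 0.147% of all genes were higher. It was read by 1 probe set. Among the 15 measured of 18 receptor coregulators, none was 1.5-fold apart in any comparison (medians from -0.05 to 0.04). Of all genes, 2.93% were lower and 0.809% higher with estradiol, 2.14% and 0.582% with ERα17p, and 0.207% and 0.147% between the agents. The coregulators ran from -0.46 to 0.51 with estradiol and from -0.32 to 0.43 with ERα17p. Of 14 luminal marker genes 12 were measured, and 1 was lower with ERα17p, where 2.14% of all genes were. This was ELF3, an epithelial ETS factor gene, at -0.67, with -0.56 for estradiol. The luminal list as a whole had medians of -0.02 with estradiol and 0.02 with ERα17p. Of the 12 genes 5 and 7 lay above 0, against 56.1% and 58.0% of all genes. Of 12 basal and mesenchymal marker genes 10 were measured, and none was 1.5-fold apart, beside the same shares of all genes. They ran from -0.29 to 0.50 with estradiol and from -0.04 to 0.34 with ERα17p.

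**Figure D4:**
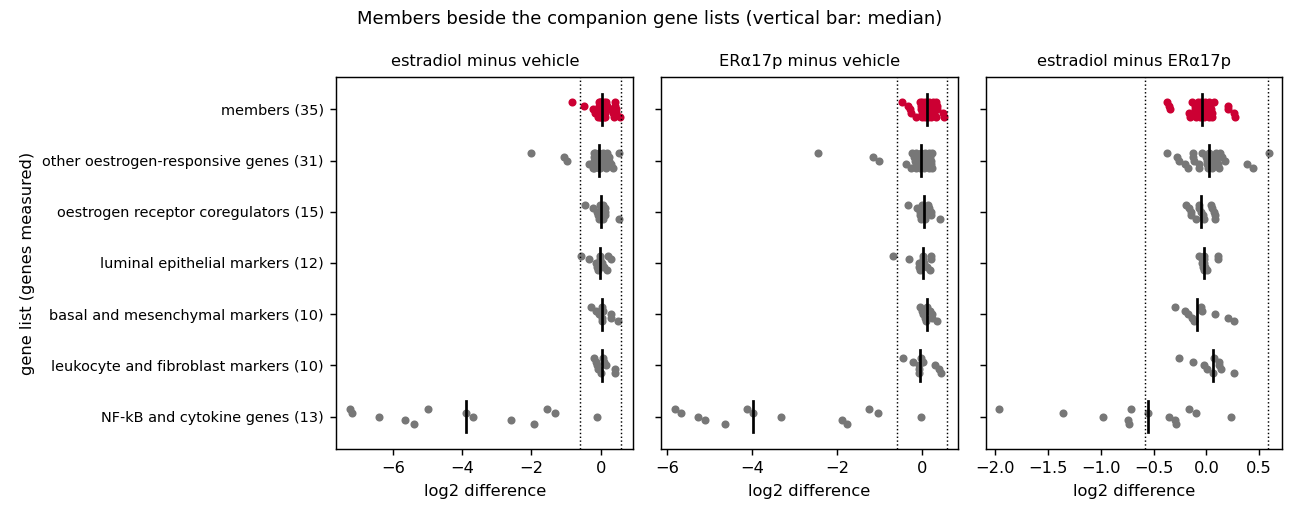
Log2 differences of single genes in the 35-gene group (red) and 6 companion lists (grey), in the 3 comparisons; black bars are medians, dotted lines mark 1.5-fold, and the horizontal axes differ between panels. The NF-kB and cytokine genes reach -7.24 with estradiol, while the lowest of the 35 genes is HSPB8 at -0.82.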

How the data were processed

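RNA of 3 SKBR3 cultures was measured on 1 Affymetrix HG-U133 Plus 2.0 array each, and nothing says whether the cultures came from separate experiments. Groups came from the sample titles. The deposited log2 values were made by the authors with RMA, per the submitters' processing notes; no version is stated in the sources used here. The values lie around 0, and in 3979 of 54675 probe sets (7.28%) 2 of the 3 columns are mirror images to within 1e-06. They were therefore read as centred on a baseline to which further arrays, not used here, contributed. A unique gene symbol was listed for 41091 probe sets, several for 1801 and none for 11721, beside 62 controls.

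With 1 array per group, differences between arrays were described by size (Python 3.11.15, pandas 2.3.3), without a test. Named were the 36 genes and, of each companion list, genes 1.5-fold apart, up to 4 per comparison. Members and lists were chosen with earlier results of these data known. Entrez IDs of all 35 measured genes were found in the GRCh38.p14 gene table. Signal over background is unknown, and the number of arrays limits the precision. Alternatives were another summary over probe sets, other probe sets, another fold, scaled arrays and another reference.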

Additional observations from a re-analysis of the deposited data

How the results depend on the processing

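With the mean over probe sets, or with the 3 arrays scaled to one spread, all 6 counts of higher and lower genes stayed as reported, 1 lower with estradiol and 0 otherwise. Without the _s_, _x_ and _a_ probe sets, which may bind more than 1 transcript, 29 of the 35 genes remained and the count lower with estradiol became 0, because HSPB8 then had -0.14. That setting moved 1 other value by more than the spread between probe sets, HSPB8 for estradiol against ERα17p, to 0.18. With the authors' baseline in place of the vehicle array, the count lower with estradiol was 0 as well. A rule of 0.32 log2 units gave 7 higher and 2 lower with estradiol, 6 and 2 with ERα17p, and 3 lower for estradiol against ERα17p. That rule against the baseline, chosen after seeing the data, gave 0 lower with estradiol and 1 higher with ERα17p. The median over the group ran over these settings from 0.00 to 0.05 with estradiol, from 0.02 to 0.14 with ERα17p and from -0.06 to -0.03 for estradiol against ERα17p. Over all genes, scaling brought the lower genes from 579 to 285 and the higher from 160 to 149 with estradiol, from 424 to 167 and from 115 to 71 with ERα17p, and from 41 to 242 and from 29 to 308 between the agents. The baseline as reference left 10 lower and 1 higher with estradiol, and 1 and 13 with ERα17p. The cause was not tested. No paired analysis was possible because each group has 1 array.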
